A study of Mus musculus with 71 samples.

Results

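The mitochondrially encoded genes are the 37 genes of the mouse mitochondrial chromosome, chosen by a symbol that starts with mt-, among the 55416 Ensembl gene identifiers of the count table. They comprise 13 protein-coding genes, 2 rRNA genes and 22 tRNA genes, and all 37 were present in the table. RNA was sequenced from brain tissue of C57BL/6J mice in a study of the brain after a non-severe burn. Burned mice had a heated brass rod 19 mm across held on the right dorsal flank for 10 s under isoflurane, giving a full-thickness burn. Mice with an excision lost full-thickness skin of the posterior back, cut along the mark of a 12 mm punch, and the wound then spread to the area of the burn. Sham mice were shaved at the site used for excision and not injured. All groups were shaved, anaesthetised with isoflurane, and given 0.1 mg/kg buprenorphine and paracetamol at 1 mg/mL in the drinking water for 5 days, so the shams carry the analgesia and anaesthesia too. The labels used here give neither age, sex and time to tissue collection nor whether libraries are separate animals and whether regions share animals, so that p-values measure only the spread between these libraries.

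The hippocampus gave 10 burn, 10 excision and 9 sham libraries, the frontal cortex 10, 10 and 8, and the piriform cortex 5, 4 and 5, which made 71 libraries of single-end 100 bp reads. Hippocampus and frontal cortex each came in 2 batches and the piriform cortex in a batch of its own, so that for it region and batch cannot be told apart. What a batch shares (animals, library making or sequencing) is not given in the labels used here. Batch 2 of the hippocampus held 5 burn, 5 excision and 5 sham libraries and batch 1 held 5, 5 and 4. In the frontal cortex, batch 2 held 5, 5 and 3 and batch 1 held 5 of each. Totals ran from 6.65 to 87.8 M (mega) counts with a median of 57 M, and the hippocampus of batch 1 was the shallowest (6.65 to 34.1 M, with 4 libraries under 10 M). In 4 libraries (frontal cortex burn replicates 7 and 8, frontal cortex excision replicate 7, piriform cortex sham replicate 2) the title names another treatment than the treatment field, which was used. Titles of the piriform libraries name the frontal cortex, while the tissue field names the piriform cortex. The hippocampal markers Prox1, Spink8 and Lct had medians of 50.6, 15.9 and 37.4 counts per 1000000 counts (CPM) in the hippocampus, 7.66, 0.863 and 1.27 CPM in the frontal cortex and 6.87, 0.494 and 1.27 CPM in the piriform cortex. The markers read here do not separate the piriform from the frontal cortex. In bulk tissue, fewer cells of a type and less RNA per cell cannot be told apart.

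The mitochondrial genome is a small circle that is transcribed from both strands into long precursors, from which mRNAs, rRNAs and tRNAs are cut, the tRNAs serving as the cutting marks between their neighbours. Its protein-coding genes give only a core of the respiratory chain: subunits of complex I (mt-Nd genes), complex III (mt-Cytb), cytochrome c oxidase (mt-Co genes) and ATP synthase (mt-Atp genes), while the nucleus encodes the other subunits and every factor that copies, transcribes and processes mitochondrial DNA. Neurons draw most of their ATP from this chain, and mitochondrial transcripts make up a sizeable share of brain RNA.

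Of the 13 mRNA genes, 12 lie on the heavy-strand transcript and 1 (mt-Nd6) on the light-strand transcript. Both rRNAs belong to the heavy-strand transcript, and the tRNAs are split into 14 of the heavy-strand and 8 of the light-strand transcript. The strand setting of the counting is not given in the sources used here, so counts of a gene and of RNA from its other strand cannot be told apart, which bears most on mt-Nd6 and on the light-strand tRNAs. The following sequences, from GRCm38 with gene positions from GENCODE M21, are those that carry the results. The first 3 are the light-strand tRNA genes for proline, cysteine and asparagine, which held nearly all tRNA counts; capitals mark the anticodon (mt-Tp chrM:15356-15422, mt-Tc chrM:5192-5257 and mt-Tn chrM:5089-5159, all minus strand).
mt-Tp: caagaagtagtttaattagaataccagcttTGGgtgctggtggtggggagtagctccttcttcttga
mt-Tc: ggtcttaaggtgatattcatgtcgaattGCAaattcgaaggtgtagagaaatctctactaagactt
mt-Tn: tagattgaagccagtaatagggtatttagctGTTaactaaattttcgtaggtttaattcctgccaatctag

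mt-Atp8 (chrM:7766-7969, plus strand), a short gene for a membrane subunit of ATP synthase, varied most between libraries among the mRNAs; capitals mark the 43 bases that also belong to mt-Atp6. The end of mt-Nd4l (chrM:10107-10173, plus strand) shares its capital letters, 7 bases, with mt-Nd4. A read that falls in such an overlap belongs to both genes, and how the counting treated it is not given in the sources used here.
mt-Atp8: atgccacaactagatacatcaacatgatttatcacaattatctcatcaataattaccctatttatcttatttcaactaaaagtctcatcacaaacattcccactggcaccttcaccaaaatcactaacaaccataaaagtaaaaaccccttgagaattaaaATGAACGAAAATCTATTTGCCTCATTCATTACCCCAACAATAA
mt-Nd4l: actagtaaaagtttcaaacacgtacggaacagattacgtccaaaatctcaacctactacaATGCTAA

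Nuclear chromosome 1 carries a copy of part of the mitochondrial genome, and the table lists its pieces as genes of their own. The first 90 bases of mt-Nd3 (chrM:9459-9548, plus strand) are set here against the copy Gm28438 (chr1:24613030-24613119, minus strand). The capital marks their single difference in these bases, T3C, counted from 1 at the 5′ end with the mitochondrial base first.
mt-Nd3: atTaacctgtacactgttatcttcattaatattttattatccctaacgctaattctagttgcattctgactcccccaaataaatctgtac
Gm28438: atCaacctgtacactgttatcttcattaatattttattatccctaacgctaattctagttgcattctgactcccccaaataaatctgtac

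Gm28438 had 1 mismatch over 345 compared bases (99.71% identity), and the copies Gm28437 of mt-Co3, Gm28661 of mt-Co2 and Gm10222 of mt-Nd4l had 100% identity. For these 4 pairs the counts of copy and member were nearly equal in every library. The ratio of Gm28438 to mt-Nd3 counts had a median of 1.001 over the 71 libraries, and the ratios of Gm28437 to mt-Co3, Gm28661 to mt-Co2 and Gm10222 to mt-Nd4l had medians of 1.002, 1.002 and 1.011. The lowest and highest ratios of any of these 4 pairs were 0.9993 and 1.016. Other copies had counts of the same order as their members without being equal. Gm10925, whose 678 bases match the end of mt-Atp8 and mt-Atp6 with 100% identity, had 1.124 to 1.382 times the counts of mt-Atp6. The copies of a piece of mt-Co1 (Gm29216, 99.79% identity) and of mt-Nd4 (Gm28439, 100%) had 0.3696 to 0.6155 times the counts of mt-Co1 and 0.2281 to 0.5494 times those of mt-Nd4. The 8 listed copies together held 0.965 to 5.34% of a library's counts, with a median of 2.76%. Copies outside the list, on other chromosomes, are not in this share. Among them, on chromosome 2, were Gm13341 of mt-Co2 (95.91% identity, 2278074 counts), Gm13340 of mt-Co1 (97.6%, 1291449) and Gm13339 of mt-Nd2 (96.67%, 270284). The rule by which shared reads were counted is not given in the sources used here. The absolute levels of mt-Co1, mt-Co2, mt-Co3, mt-Nd2, mt-Nd3, mt-Nd4l, mt-Nd4, mt-Atp6 and mt-Atp8 are thus uncertain. So is any order of levels that holds them.

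Transcripts of the mitochondrial genome took 1.98 to 10.45% of all counts of a library. Protein-coding genes held 91.45% of the counts of the 37 genes over all libraries, the 2 rRNA genes 8.528% and the 22 tRNA genes 0.02681%. The median share of mt-Co1, the catalytic subunit of cytochrome c oxidase, was 24.64% of the 37 genes' counts, followed by mt-Co3 with 10.45%, mt-Atp6 with 10.25% and mt-Co2 with 9.167%. At the other end stood mt-Nd6 with 1.451%, mt-Nd3 with 1.369%, mt-Nd4l with 0.8329% and mt-Atp8 with 0.6185%. Per kilobase of gene, the order of mean levels in the hippocampus (n = 29) began with mt-Co1 (8376 ± 1977 CPM per kb, SD), mt-Atp6 (8194 ± 2044), mt-Co2 (7540) and mt-Co3 (7360), whose differences are well within their SDs. The middle of the order held mt-Cytb (3881 CPM per kb), mt-Nd1 (3784), mt-Nd4 (2957), mt-Rnr1 (2437), mt-Nd2 (2371), mt-Nd3 (2203) and mt-Rnr2 (2046). It ended with mt-Atp8 (1693), mt-Nd6 (1533), mt-Nd4l (1354) and mt-Nd5 (1030 ± 291.2 CPM per kb). In the piriform cortex (n = 14) and the frontal cortex (n = 28) mt-Co1 was also first per kilobase, with 12120 ± 2372 and 8647 ± 2554 CPM per kb, and mt-Nd5 last, with 1767 ± 326.3 and 1283 ± 410.2 CPM per kb. Per kilobase the counts of mt-Co1 thus lay above those of mt-Nd5 in every region. The gap far exceeded their SDs, which measure the spread between libraries and not the uncertain counting of mt-Co1.

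The rRNAs of the mitochondrial ribosome are the most abundant mitochondrial RNAs in living cells, but per kilobase mt-Rnr1 ranked 8 of the 15 mRNA and rRNA genes in the hippocampus, 9 in the piriform and 10 in the frontal cortex here, and mt-Rnr2 ranked 11, 11 and 14. The steps that enriched or depleted RNA before sequencing are absent from the labels used here.

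**Figure D1:**
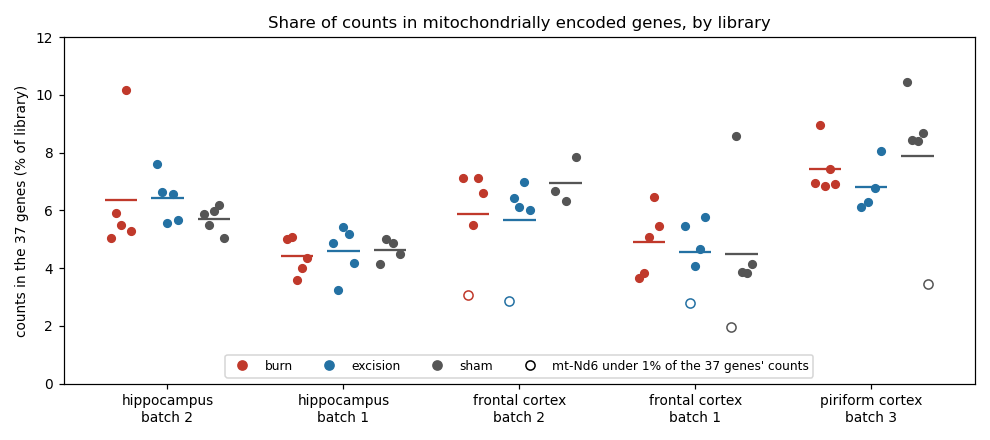
Share of each library's counts that fell in the 37 mitochondrially encoded genes (% of library), by region, batch and treatment, with burn, excision and sham side by side, 1 point per library and a line at each group's mean. Open points are the 5 cortex libraries in which mt-Nd6 held under 1% of the 37 genes' counts; hippocampus burn replicate 9 (10.16%) stands far above the other hippocampus libraries.

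A few cortex libraries with another mitochondrial profile stood apart and are given before the comparisons. In piriform cortex sham replicate 5 and in frontal cortex sham replicate 1, excision replicates 2 and 6 and burn replicate 7, mt-Nd6 held 0.552 to 0.809% of the counts of the 37 genes, against 1.26 to 1.85% in the other 37 cortex libraries. The limit of 1% was set after these values were seen. Their mitochondrial shares were 3.467, 1.975, 2.807, 2.864 and 3.079%, in that order, all at the low end of their regions. mt-Atp8 had 14.4 to 29.4 CPM in these 5 libraries and 180 to 604 CPM in the other 37, and mt-Tp had 0.630 to 0.966 CPM in the 5 and 5.81 to 36.4 CPM in the other 37. Neither gene's ranges overlapped. mt-Co1, by contrast, made up 29.0 to 32.2% of the 37 genes' counts in the 5 libraries, against 22.5 to 26.4% in the other 37.

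All 15 mRNA and rRNA genes and mt-Tp were lower in these 5 libraries than the mean of their own region and batch, but by very different amounts. The mean log2 deviation was -4.37 for mt-Tp and -4.11 for mt-Atp8, -2.16 for mt-Nd3, -2.12 for mt-Nd6 and -2.08 for mt-Nd2. It was smallest for mt-Co1 (-0.77), mt-Cytb (-0.80), mt-Nd5 (-0.84) and mt-Co2 (-0.86), and the rRNA genes lay between with -1.17 for mt-Rnr1 and -1.27 for mt-Rnr2. Among the protein-coding genes the deviation ran with base composition: mt-Atp8 is 68.1% A and T, mt-Nd3 67.0%, mt-Nd6 65.9% and mt-Nd2 64.3%, while mt-Co1 is 60.1% and mt-Nd4l, with a deviation of -0.94, is 58.9%. Across the 13 protein-coding genes, A and T content and deviation had a Pearson r of -0.85 and a Spearman rho of -0.86, as a description over genes that share these 5 libraries and 1 of which, mt-Nd6, chose them. mt-Tp, at 55.2% A and T, fell outside that order. Among 12730 nuclear protein-coding genes, the decile richest in A and T minus the decile poorest in them gave log2 differences of -1.02 to -0.182 in these libraries, and the same difference ran from -0.778 to 0.348 in the other 66 libraries, so the ranges overlapped. A part of RNA quality or library making in these values was not tested. All results below that include these libraries are also given without them where that changes the picture. Calls made without them are a description and not a result, since the members' own values chose the libraries.

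**Figure D2:**
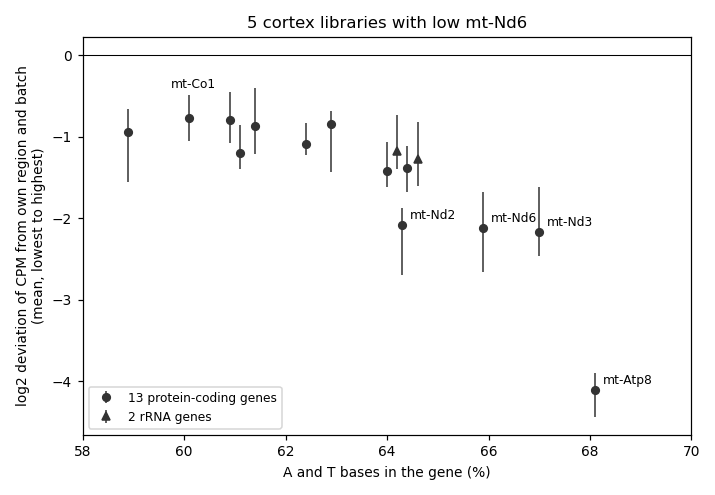
Mean log2 deviation of CPM from the library's own region and batch in the 5 cortex libraries with low mt-Nd6, plotted against the A and T content of each gene (%). Circles are the 13 protein-coding and triangles the 2 rRNA genes, and bars run from the lowest to the highest of the 5 libraries; mt-Atp8 lies lowest at -4.11, and mt-Co1 at -0.77.

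Treatment came first among the study's questions. Neither burn nor excision gave a call for any mitochondrially encoded gene in any region. Differences were called at an adjusted p under 0.05 in edgeR's quasi-likelihood test, with batch as a term and Benjamini-Hochberg adjustment over all genes tested. Over the 9 contrasts of burn, excision and sham, 0 members were called, 0 had an unadjusted p under 0.05, DESeq2's Wald test called 0, and the smallest adjusted p was 0.370. The burn and excision contrasts of a region share its sham libraries.

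In the hippocampus the mitochondrial share was 3.58 to 10.16% with a median of 5.07% in burn libraries, 3.25 to 7.63% with a median of 5.50% in excision libraries, and 4.14 to 6.20% with a median of 5.05% in sham libraries. The groups overlapped broadly, and the burn maximum was replicate 9 alone. Of 17 members tested, 0 were called for burn against sham, where 1.03% of all genes were called, 0 for excision against sham (0% of all genes) and 0 for burn against excision (0.209%). mt-Co1 had 7699, 11980 and 23780 CPM as lowest, median and highest of the burn libraries, 8376, 13430 and 18150 CPM in excision libraries and 10120, 12810 and 14560 CPM in sham libraries. Its sham range lay inside both injury ranges. The median log2 fold change of the 13 protein-coding genes was 0.11 for burn against sham, 0.11 for excision against sham and -0.02 for burn against excision, beside 0.01, -0.00 and 0.01 for all genes tested. Without burn replicate 9 the median was -0.04 for burn against sham and -0.17 for burn against excision, and without burn replicate 3 burn against excision gave 0.02.

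The smallest p of the hippocampus for burn against sham was that of mt-Nd5, a proton-pumping subunit of complex I. It had 1116, 1924 and 3696 CPM as lowest, median and highest of the burn libraries, against 1234, 1735 and 2073 CPM of the sham libraries, with a log2 fold change of 0.23 ± 0.14 (SE; unadjusted p = 0.0934, edgeR adjusted p = 0.370). The groups overlapped, and the value was 0.09 without burn replicate 9. mt-Tp had 3.74, 11.4 and 14.5 CPM in burn libraries, against 9.81, 11.2 and 15.1 CPM in sham libraries, a log2 fold change of -0.27 ± 0.18 (edgeR adjusted p = 0.454). The burn group reached lower than the sham group, and both otherwise coincided. For excision against sham, mt-Nd4l, a small membrane subunit of complex I, had 198, 396.5 and 690 CPM in excision libraries and 230, 346 and 496 CPM in sham libraries, a log2 fold change of 0.28 ± 0.17 (edgeR adjusted p = 0.852). Next to it mt-Nd4 had 0.16 ± 0.12 (edgeR adjusted p = 0.852). For burn against excision the smallest p values were those of mt-Tp, at -0.25 ± 0.18 (edgeR adjusted p = 0.523), and mt-Co2, at -0.08 ± 0.13 (edgeR adjusted p = 0.796). Over the 13 protein-coding and 2 rRNA genes, log2 fold changes ran from -0.04 to 0.24 for burn against sham, -0.03 to 0.28 for excision against sham and -0.08 to 0.08 for burn against excision. Their 95% intervals (normal approximation) reached from -0.30 to 0.63, -0.28 to 0.69 and -0.49 to 0.37 at the outermost. These intervals hold for single genes in the fit of both batches, and larger changes are not excluded. In batch 2 alone, mt-Nd4l for excision against sham was 0.39 ± 0.23.

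In the frontal cortex the share was 3.08 to 7.14% with a median of 5.49% in burn libraries, 2.81 to 6.97% with a median of 5.61% in excision libraries and 1.98 to 8.59% with a median of 5.24% in sham libraries. Sham libraries held both the lowest and the highest share of the region, so the groups overlapped. Without the 4 libraries with low mt-Nd6 the means were 5.65 ± 1.30% in burn (SD, n = 9), 5.69 ± 0.94% in excision (n = 8) and 5.90 ± 1.97% in sham libraries (n = 7). Of 16 members tested, 0 were called for burn against sham (0.28% of all genes), for excision against sham (0%) and for burn against excision (0.209%). The largest differences from sham by p were in the rRNAs of the mitochondrial ribosome for burn. mt-Rnr1, the small-subunit rRNA, had 842, 1788 and 2185 CPM as lowest, median and highest of the burn libraries, against 798, 1722 and 2966 CPM of the sham libraries, at -0.18 ± 0.24 (SE; edgeR adjusted p = 0.809). mt-Rnr2, the large-subunit rRNA, stood at -0.19 ± 0.24 (edgeR adjusted p = 0.797). For each rRNA 2 of the 8 sham libraries lay above every burn library, and the ranges otherwise overlapped. The direction turned to 0.12 for both genes with treatments taken from titles, and to 0.09 for mt-Rnr1 and 0.10 for mt-Rnr2 in batch 1 alone.

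For excision against sham, mt-Nd5 had 1265, 2239 and 2949 CPM in excision libraries and 768, 2159 and 3960 CPM in sham libraries, at -0.16 ± 0.22 (SE; edgeR adjusted p = 0.969), and mt-Atp6, the proton channel subunit of ATP synthase, stood at -0.22 ± 0.27 (edgeR adjusted p = 0.969). For burn against excision, mt-Nd5 had 1694, 2500 and 3563 CPM in burn libraries against the excision values just given, at 0.26 ± 0.21 (edgeR adjusted p = 0.633), and mt-Nd4l had 336, 472 and 677 CPM in burn and 224, 449 and 624.6 CPM in excision libraries, at 0.23 ± 0.21 (edgeR adjusted p = 0.675). None of these groups separated. The ranges of log2 fold change over the 15 mRNA and rRNA genes were -0.19 to 0.11, -0.36 to -0.06 and -0.10 to 0.39 for burn and for excision against sham and for burn against excision. Their 95% intervals reached from -0.98 to 1.05, -1.37 to 0.66 and -0.61 to 1.36, wider than in the hippocampus. The medians of the 13 protein-coding genes were 0.03, -0.12 and 0.16 and, without the 4 libraries with low mt-Nd6, -0.01, -0.08 and 0.07, with 0 members called by edgeR in either case. Leaving out 1 sham library turned the sign of the median: for burn against sham it was -0.11 without sham replicate 1 and 0.24 without sham replicate 2, and for excision against sham -0.24 and 0.08.

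Within batches the direction for burn against sham was not steady, while the median for excision against sham kept its sign. The median log2 fold change of the 13 protein-coding genes for burn against sham was 0.18 in batch 2 and -0.05 in batch 1 of the hippocampus, and -0.20 in batch 2 and 0.20 in batch 1 of the frontal cortex. For excision against sham it was 0.18 in batch 2 and 0.01 in batch 1 of the hippocampus, and -0.25 and -0.03 in batches 2 and 1 of the frontal cortex. The difference of the burn effect between batches, batch 2 minus batch 1, was tested as an interaction in edgeR. It gave 0 calls of 17 members in the hippocampus, where 0.046% of all genes were called, and 0 of 16 in the frontal cortex (0%), and DESeq2 was not run for it. A single member had an unadjusted p under 0.05, mt-Tp in the hippocampus, where 3180 of all 19574 genes did. mt-Tp had 3.74 to 11.5 CPM in the 5 burn libraries of batch 2 and 11.4 to 14.5 CPM in the 5 of batch 1, and the interaction was -0.90 ± 0.33 on the log2 scale (SE; unadjusted p = 0.0119, edgeR adjusted p = 0.185). In the frontal cortex 0 members had an unadjusted p under 0.05.

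In batch 2 of the frontal cortex, with 3 sham libraries, 2 pairs of groups did not overlap. How many of all genes separated likewise between these groups was not counted. mt-Rnr2 averaged 2061 CPM in burn and 3033 CPM in sham libraries, and mt-Tp averaged 15.2 CPM in excision and 23.1 CPM in sham libraries. Neither was called in that batch alone, where edgeR gave log2 fold changes of -0.55 ± 0.36 (adjusted p = 0.819) and -0.56 ± 0.79 (adjusted p = 0.830). With treatments taken from titles both pairs overlapped, mt-Rnr2 averaging 2573 CPM in 4 burn and 2418 CPM in 5 sham libraries. Without the libraries with low mt-Nd6, mt-Tp averaged 18.9 CPM in 4 excision libraries and mt-Rnr2 2321 CPM in 4 burn libraries, and neither pair overlapped.

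The piriform cortex had the fewest libraries, and its result turns on 1 of them. The share was 6.949, 8.954, 6.862, 7.436 and 6.913% in burn replicates 1 to 5, 6.124, 6.289, 6.774 and 8.045% in excision replicates 1 to 4, and 10.45, 8.452, 8.402, 8.683 and 3.467% in sham replicates 1 to 5. Sham replicate 5, a library with low mt-Nd6, lay below all others, and the remaining 4 sham libraries lay above all 4 excision libraries. Sham replicate 2 is an excision library by its title. Its 8.452% lay above the 8.402% of sham replicate 3, so grouping by title gave an overlap. With all libraries, 0 of 16 members were called by edgeR for burn and for excision against sham and for burn against excision, in each of which 0% of all genes were called. mt-Rnr1 had 2846, 3258, 2059, 2466 and 2356 CPM in burn libraries, against 4449, 3472, 3943, 3080 and 1080 CPM in sham libraries, a log2 fold change of -0.37 ± 0.27 (SE; edgeR adjusted p = 0.884). mt-Rnr2 stood at -0.37 ± 0.30 (edgeR adjusted p = 0.884). Apart from sham replicate 5, most sham values lay above the burn values, with an overlap between burn replicate 2 and sham replicate 4.

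mt-Nd5 had 3015, 4200, 3432, 3651 and 3162 CPM in burn libraries, 2261, 2851, 2984 and 3110 CPM in excision libraries and 3858, 3551, 3254, 3760 and 2022 CPM in sham libraries. The log2 fold change was -0.28 ± 0.17 for excision against sham (SE; edgeR adjusted p = 0.915) and 0.32 ± 0.17 for burn against excision (edgeR adjusted p = 0.663). mt-Nd4l was 605.5, 788.2, 733.5, 812.6 and 674.5 CPM in burn libraries and 358.6, 578.3, 693.3 and 595.7 CPM in excision libraries, at 0.38 ± 0.20 (edgeR adjusted p = 0.659), and excision against sham gave -0.32 ± 0.20 (edgeR adjusted p = 0.915). Excision libraries had the lowest mean of the groups for both complex I subunits, with or without sham replicate 5, and excision and burn overlapped. Log2 fold changes of the 15 mRNA and rRNA genes ran from -0.37 to 0.28 for burn against sham, -0.32 to -0.13 for excision against sham and -0.13 to 0.42 for burn against excision, and the 95% intervals reached from -0.95 to 1.17, -1.09 to 0.80 and -0.74 to 1.37.

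Without sham replicate 5, still 0 members were called by edgeR, but 12 of 16 had an unadjusted p under 0.05 for burn against sham, 15 for excision against sham and 5 for burn against excision. Among all 20918 genes tested in that fit the same held for 1799, 824 and 2079. The median log2 fold change of the 13 protein-coding genes was then -0.30, -0.46 and 0.16, against -0.06, -0.27 and 0.17 with all libraries, and for burn against sham it was 0.09 without sham replicate 1. mt-Rnr1 for burn against sham became -0.61 ± 0.14 (unadjusted p = 0.000733, edgeR adjusted p = 0.548) and mt-Nd4 for excision against sham -0.48 ± 0.11 (unadjusted p = 0.000383, edgeR adjusted p = 0.9997). Excision and the remaining sham libraries did not overlap for mt-Co1, mt-Co2, mt-Nd3, mt-Nd4l, mt-Nd4, mt-Nd5, mt-Nd6 and mt-Cytb. Some gaps were small, 693.3 to 694.6 CPM for mt-Nd4l and 980.3 to 983.4 CPM for mt-Nd3. How many of all genes separated likewise was not counted. With sham replicate 2 taken as excision, as titled, mt-Nd3, mt-Nd4l, mt-Nd4, mt-Nd5 and mt-Nd6 overlapped, and mt-Co1, mt-Co2 and mt-Cytb did not. By the treatment field the means were 17000 CPM in excision and 22630 CPM in sham libraries for mt-Co1, and 5401 and 7210 CPM in the same order for mt-Nd4. Since sham replicate 5 was set aside for its own mitochondrial profile, these values are a description and not a result.

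**Figure D3:**
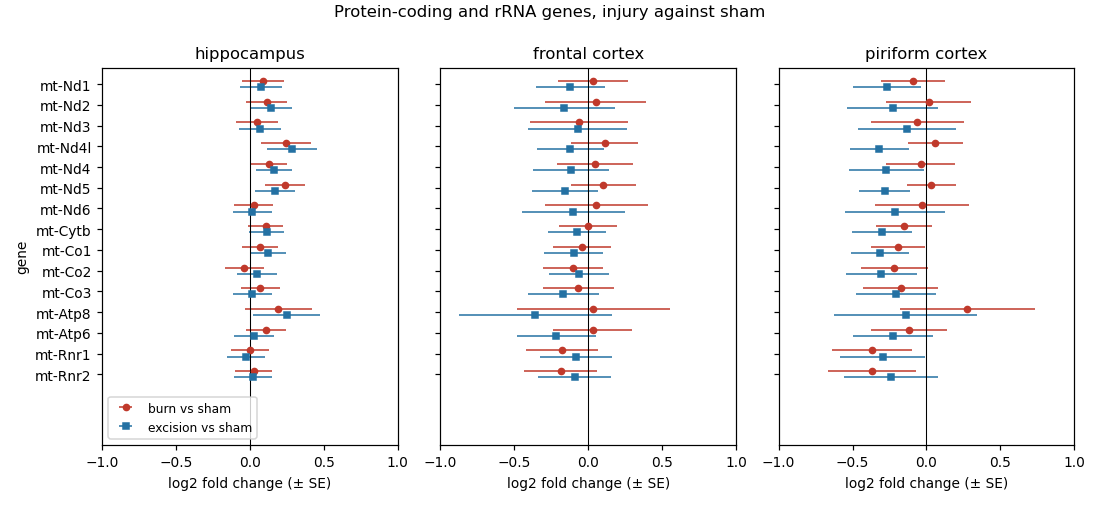
Log2 fold change (± SE, edgeR) of the 13 protein-coding and 2 rRNA genes for burn against sham (circles) and excision against sham (squares) in the hippocampus, frontal cortex and piriform cortex. No point is called; the bars are shortest in the hippocampus, and the points of the hippocampus lie between -0.04 and 0.28.

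Nuclear genes of the respiratory chain and of mitochondrial gene expression were read beside the members. Of 29 nuclear-encoded oxidative phosphorylation subunits, 26 tested factors for transcription, replication and RNA processing of mitochondrial DNA, 5 biogenesis regulators and 7 tested nuclear copies, edgeR called 0 in any of the 9 treatment contrasts. At an unadjusted p under 0.05 stood 0 to 12 subunits, 0 to 7 factors, 0 to 2 regulators and 0 copies per contrast, and DESeq2 called at most 1 subunit, 4 factors, 1 regulator and 0 copies in a contrast. The 12 subunits came from burn against excision in the hippocampus, where 2790 of all 19574 genes had an unadjusted p under 0.05. The 7 factors came from burn against sham there, where 3470 genes did. The subunit list had median log2 fold changes of 0.04 for burn against sham, -0.11 for excision against sham and 0.12 for burn against excision in the hippocampus, all 29 being above 0 in that last contrast. In the frontal cortex the medians were -0.06, -0.04 and -0.04, and in the piriform cortex -0.10, -0.03 and -0.08.

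Mitochondrial genes differed between the batches of the hippocampus. In the hippocampus 14 of 17 tested members were called higher in batch 2 than in batch 1 and none was called lower, while 16.4% of all genes were called and 7.86% called higher. DESeq2 also called 14 (9.41% of all genes), all 29 fits that left out 1 library called 14, and 12 were called without the 4 shallow libraries of batch 1 (11.3% of all genes). The share was 5.05 to 10.16% with a median of 5.87% in batch 2, against 3.25 to 5.42% with a median of 4.68% in batch 1, so the batches overlapped only at the edge. The median log2 fold change of the 13 protein-coding genes was 0.54, beside 0.01 for all genes, and 0.44 without burn replicate 9.

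mt-Atp8 changed most. It had 354 to 916 CPM with a median of 473 CPM in batch 2, against 52.6 to 260 CPM with a median of 134 CPM in batch 1, and the batches did not overlap. The log2 fold change was 1.96 ± 0.19 (SE; edgeR adjusted p = 2.465e-08). Its part in the 37 genes' own counts was 0.592 to 1.09% in batch 2 and 0.162 to 0.518% in batch 1, so mt-Atp8 differed beyond the shift that the mitochondrial genes shared. Among the complex I genes, mt-Nd3 had 746 to 1651 CPM in batch 2 and 428 to 743 CPM in batch 1 (log2 fold change 0.84 ± 0.12, edgeR adjusted p = 1.064e-05). mt-Nd2 had 2422 to 5045 CPM in batch 2 and 1099 to 2305 CPM in batch 1 (0.79 ± 0.11, edgeR adjusted p = 1.4e-05), and mt-Nd4 4081 to 7900 CPM in batch 2 and 2096 to 3847 CPM in batch 1 (0.70 ± 0.10, edgeR adjusted p = 1.51e-05). For all of these complex I genes the lowest library of batch 2 lay above the highest of batch 1.

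The other complex I genes differed less, with log2 fold changes of 0.56 ± 0.12 for mt-Nd1, 0.56 ± 0.14 for mt-Nd4l, 0.54 ± 0.11 for mt-Nd5 and, on the opposite strand, 0.38 ± 0.11 for mt-Nd6. The cytochrome c oxidase genes gave 0.46 ± 0.10 for mt-Co1, 0.49 ± 0.11 for mt-Co2 and 0.37 ± 0.11 for mt-Co3, the cytochrome b gene mt-Cytb 0.46 ± 0.10 and mt-Atp6 0.46 ± 0.11, all called. mt-Co1 had 11830 to 23780 CPM in batch 2 and 7699 to 13570 CPM in batch 1, with overlap. Of the rRNAs, mt-Rnr2 was called at 0.35 ± 0.10 (edgeR adjusted p = 0.0212) and mt-Rnr1 was not, at 0.25 ± 0.11 (edgeR adjusted p = 0.104). The tRNA genes were not called, with mt-Tc at 0.30 ± 0.20 (edgeR adjusted p = 0.319) and mt-Tp at -0.28 ± 0.15 (edgeR adjusted p = 0.206), the sole tested member with a negative value.

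Most nuclear subunits called in this comparison were lower in batch 2, where 16.4% of all genes were called and 7.86% called higher. Of 29 nuclear-encoded oxidative phosphorylation genes, 1 was called higher and 15 lower in batch 2, with a median log2 fold change of -0.13. Among them were Cox5a of cytochrome c oxidase (-0.45 ± 0.06), the complex III iron-sulphur protein Uqcrfs1 (-0.27 ± 0.04) and the ATP synthase subunit Atp5a1 (-0.16 ± 0.03). Of the 26 expression and processing factors, the mitochondrial poly(A) polymerase Mtpap was called higher (0.20 ± 0.04) and 3 were called lower, among them Lrpprc, which stabilises mitochondrial mRNAs (-0.13 ± 0.04). Of the 5 biogenesis regulators, the coactivator Ppargc1a was called higher (0.26 ± 0.08) and the nuclear receptor Esrra lower (-0.17 ± 0.04). All 7 tested nuclear copies were called higher, among them Gm28439 (0.93 ± 0.13) and Gm28438 (0.84 ± 0.12), as their members were. Of 8 nuclear-retained long noncoding RNAs, 3 were called higher, Malat1 by 0.96 ± 0.26, Xist by 0.62 ± 0.17 and Rian by 0.18 ± 0.05. Depth moved with the batches, at 30.7 to 70.7 M counts in batch 2 and 6.65 to 34.1 M in batch 1. The summed level of the choroid plexus markers had a median of 898.8 CPM (22.8 to 3774) in batch 2 and 133 CPM (29.2 to 6927) in batch 1, and that of 7 neuronal markers 6077 CPM (5141 to 6575) in batch 2 and 5753 CPM (5467 to 6317) in batch 1. The part of depth and of choroid plexus in the result was not tested.

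In the frontal cortex the members had higher fitted values in batch 2, but edgeR called none of them. The share was 2.86 to 7.85% with a median of 6.43% in batch 2 and 1.98 to 8.59% with a median of 4.16% in batch 1. edgeR called 0 of 16 members, where 10% of all genes were called. An unadjusted p under 0.05 held for 4 of the 16 members and for 5572 of all 21077 genes, a like share. DESeq2 called 1 member (7.28% of all genes). All 16 log2 fold changes were above 0, from 0.10 to 0.46. mt-Cytb had 3037 to 6611 CPM with a median of 5585 CPM in batch 2 and 1879 to 6783 CPM with a median of 3293 CPM in batch 1, at 0.45 ± 0.16 (SE; edgeR adjusted p = 0.0628). mt-Co2 had a median of 6011 CPM in batch 2 and 3760 CPM in batch 1, at 0.45 ± 0.16 (edgeR adjusted p = 0.0707). The batches overlapped across most of their ranges. Without the 4 libraries with low mt-Nd6, where 19.6% of all genes were called, 7 members were called higher: mt-Nd1 (0.45), mt-Nd2 (0.40), mt-Nd4 (0.43), mt-Nd6 (0.49), mt-Cytb (0.47), mt-Co1 (0.41) and mt-Co2 (0.51). Those libraries were set aside for their own mitochondrial profile, by a limit on mt-Nd6, so the 7 calls are a description and not a result. Leaving out single libraries gave 4 calls without sham replicate 2 (10.1% of all genes), 2 without excision replicate 6 (12.5%) and 2 without burn replicate 7 (11.3%), and a base composition covariate gave 2 (23.9%). mt-Atp8, the gene that differed most in the hippocampus, had a median of 381 CPM in batch 2 and 293.3 CPM in batch 1 of the frontal cortex, at 0.16 ± 0.42 (edgeR adjusted p = 0.853). Whether the batch difference itself differs between regions was not tested. Among the nuclear lists, the polymerase subunits Polg (0.19 ± 0.06) and Polg2 (0.39 ± 0.12) and the long noncoding RNA Neat1 (0.56 ± 0.16) were called higher in batch 2.

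**Figure D4:**
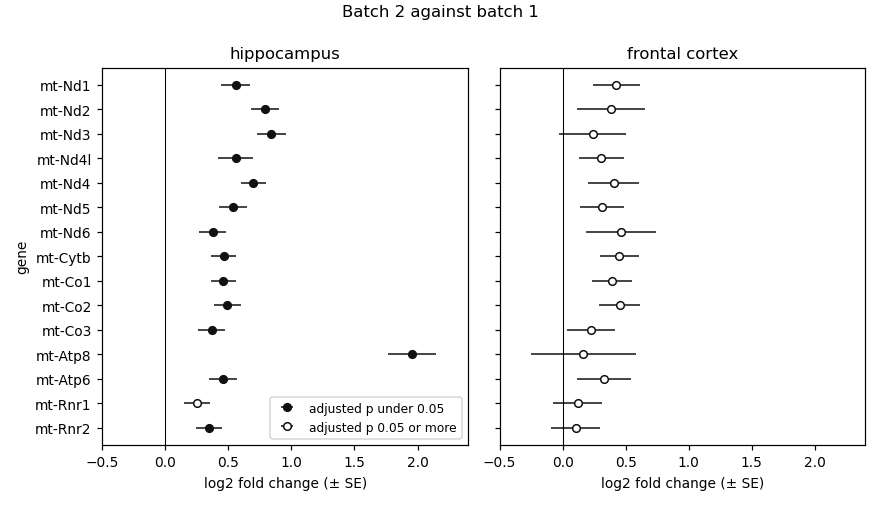
Log2 fold change (± SE, edgeR) of the 13 protein-coding and 2 rRNA genes, batch 2 against batch 1, in the hippocampus and the frontal cortex. Filled points passed an adjusted p under 0.05; mt-Atp8 of the hippocampus stands alone at 1.96, and all frontal cortex points are open and lie between 0.10 and 0.46.

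Between regions, the tRNA genes mt-Tc and mt-Tn gave the widest differences. The mRNA and rRNA genes were all above 0 for the piriform cortex against either other region and had both directions for hippocampus against frontal cortex. The comparison used a single fit of all 71 libraries with each combination of region, batch and treatment as a group, each region being the mean of its groups. 18 members were tested, the 15 mRNA and rRNA genes with mt-Tp, mt-Tc and mt-Tn.

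Of the 22 tRNA genes, mt-Tp held 95.9% of all tRNA counts (56207 counts) and mt-Tc 3.23% (1894 counts), followed by mt-Tn with 255 counts. The other tRNA genes were almost silent in the table: 19 of the 22 had under 100 counts over all 71 libraries, and mt-Ti, mt-Td, mt-Tg, mt-Tr and mt-Ts2 had 0, which over all libraries allows a level of up to 0.000814 CPM (3 counts, covering counting error only). tRNAs, at 59 to 75 bp, are shorter than a read. The heavy-strand tRNAs had 72 counts in the hippocampus, 0 in the frontal cortex and 0 in the piriform cortex, where 0 allows up to 0.00158 and 0.00341 CPM. The light-strand tRNAs other than mt-Tp had 2237 counts in 909.4 M in the hippocampus, 52 in 1894 M in the frontal cortex and 43 in 879.8 M in the piriform cortex.

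mt-Tc, the cysteine tRNA gene printed above, had a median of 1.97 CPM (0.561 to 4.46) in the hippocampus, 0.0140 CPM (0 to 0.0733) in the frontal cortex and 0.0336 CPM (0 to 0.0889) in the piriform cortex. Every hippocampus library lay above every cortex library, in batch 2 (1.41 to 4.46 CPM) as in batch 1 (0.561 to 2.69 CPM). The log2 fold change was 6.74 ± 0.26 for hippocampus against frontal cortex (SE; edgeR adjusted p = 1.747e-33) and -5.89 ± 0.31 for piriform cortex against hippocampus (edgeR adjusted p = 9.264e-26). mt-Tn, its neighbour on the same strand, had medians of 0.235, 0 and 0.0148 CPM in the hippocampus, frontal and piriform cortex, at 4.40 ± 0.34 for hippocampus against frontal cortex (edgeR adjusted p = 1.178e-17) and -3.59 ± 0.40 for piriform cortex against hippocampus (edgeR adjusted p = 8.791e-12). Fitted values of so few counts depend on the prior count and are no bounds. mt-Tp did not share this pattern: its medians were 20.4 CPM (0.747 to 36.4) in the piriform cortex, 11.6 CPM (3.74 to 15.1) in the hippocampus and 16.8 CPM (0.630 to 31.5) in the frontal cortex. Hippocampus and frontal cortex carry the same batch numbers, but depth differed, at 6.65 to 70.7 M counts in the hippocampus and 47.4 to 87.8 M in the frontal cortex. A part of depth or library making in the tRNA difference was not tested.

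**Figure D5:**
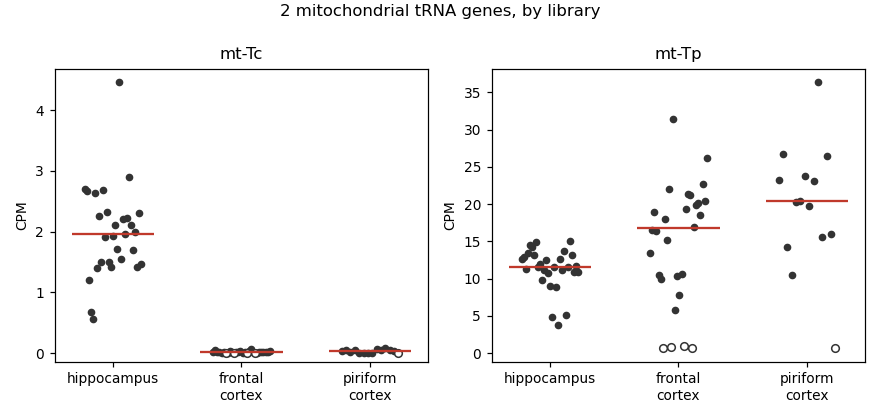
CPM of the tRNA genes mt-Tc and mt-Tp in each library, by region, with a line at the median; open points are the 5 cortex libraries with low mt-Nd6. mt-Tc lies between 0.561 and 4.46 CPM in the hippocampus and at or below 0.0889 CPM in both cortex regions, while mt-Tp is of like order in all regions apart from the open points.

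For hippocampus against frontal cortex, 6 of 18 members were called, 4 higher and 2 lower, where 62% of all genes were called, 30.4% higher and 31.6% lower. Besides the 2 tRNA genes, the rRNAs were higher in the hippocampus. mt-Rnr2 had a median of 3047 CPM in the hippocampus and 2412 CPM in the frontal cortex, at 0.42 ± 0.12 (SE; edgeR adjusted p = 0.00238), and mt-Rnr1 2168 CPM (1783 to 4250) in the hippocampus and 1788 CPM (787 to 2966) in the frontal cortex, at 0.35 ± 0.12 (edgeR adjusted p = 0.00919). Lower in the hippocampus were mt-Nd5, with 1883 CPM (1090 to 3696) in the hippocampus and 2365 CPM (768 to 3960) in the frontal cortex, at -0.39 ± 0.10 (edgeR adjusted p = 0.000778), and mt-Nd4l, at -0.26 ± 0.11 (edgeR adjusted p = 0.0438). Ranges overlapped for all 4 of these genes. mt-Co1 had medians of 12910 and 13890 CPM in hippocampus and frontal cortex and was not called. Without the 5 libraries with low mt-Nd6 13 members were called (64.3% of all genes), mt-Nd5 then at -0.49 ± 0.09, mt-Nd2 at -0.39 ± 0.09 and mt-Tp at -0.68 ± 0.13, with mt-Rnr2 at 0.30 ± 0.09. Those calls are a description only, the libraries having been left out for their mitochondrial profile. In the sham libraries alone only mt-Tc and mt-Tn were called (39.3% of all genes). The rRNA genes took a larger part of the 37 genes' counts in the hippocampus, 6.095 ± 0.790% for mt-Rnr2 and 4.409 ± 0.711% for mt-Rnr1 (SD, n = 29), than in the frontal cortex without those libraries, 4.44 ± 0.622% and 3.339 ± 0.495% (n = 24).

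The piriform cortex had the highest mitochondrial share, 7.41 ± 1.65% (SD, n = 14), or 7.72 ± 1.24% without its library with low mt-Nd6 (n = 13), against 5.38 ± 1.31% in the hippocampus (n = 29) and 5.30 ± 1.68% in the frontal cortex (n = 28), or 5.74 ± 1.37% there without such libraries (n = 24). Against the frontal cortex, 12 of 18 members were called higher and 0 lower, where 38% of all genes were called and 19.5% called higher. The log2 fold changes of those 12 ran from 0.47 for mt-Co3 to 0.74 for mt-Rnr1. mt-Rnr1 had a median of 2715 CPM (1080 to 4449) in the piriform and 1788 CPM (787 to 2966) in the frontal cortex, at 0.74 ± 0.14 (SE; edgeR adjusted p = 3.418e-05). mt-Co1 had a median of 18240 CPM in the piriform and 13890 CPM in the frontal cortex, at 0.53 ± 0.12 (edgeR adjusted p = 0.000203). Between them lay mt-Rnr2 (0.66), mt-Nd4l (0.56), mt-Co2 (0.54), mt-Atp6, mt-Nd4, mt-Cytb, mt-Nd2, mt-Nd5 and mt-Nd1. mt-Nd6, mt-Atp8, mt-Nd3 and the 3 tRNA genes were not called, mt-Nd6 at an edgeR adjusted p of 0.0526. Without the 5 libraries with low mt-Nd6 15 were called (37.3% of all genes), the exceptions being the tRNA genes, again as a description only. In sham libraries alone, where 12.3% of all genes were called, 1 was called, mt-Rnr1 (0.86 ± 0.28, edgeR adjusted p = 0.0456).

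Against the hippocampus, 16 of 18 members were called in the piriform cortex, 14 higher and 2 lower, where 63% of all genes were called, 32% higher and 31.1% lower. The lower 2 were mt-Tc and mt-Tn. mt-Nd5 had a median of 3208 CPM (2022 to 4200) in the piriform cortex and 1883 CPM (1090 to 3696) in the hippocampus, at 0.89 ± 0.12 (SE; edgeR adjusted p = 4.527e-09). mt-Tp stood at 0.94 ± 0.30 (edgeR adjusted p = 0.00449), mt-Nd4l at 0.82 ± 0.14, mt-Nd2 at 0.74 ± 0.18 and mt-Nd4 at 0.71 ± 0.14, while mt-Rnr2 (0.24 ± 0.15, edgeR adjusted p = 0.154) and mt-Nd3 (0.38 ± 0.19, edgeR adjusted p = 0.0655) were not called. As a description only, all 18 were called without the 5 libraries with low mt-Nd6 (63.2% of all genes). In sham libraries alone 10 were called (34.8%). mt-Nd5 and mt-Nd4l thus stood lowest in the hippocampus and highest in the piriform cortex among the regions, and all 3 region contrasts called both.

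Nuclear genes of the chain were highest in the hippocampus by counts of calls between regions. Of all genes, 62% were called for hippocampus against frontal cortex, 30.4% higher. The shares were 38% and 19.5% for piriform against frontal cortex, and 63% and 32% for piriform cortex against hippocampus. For hippocampus against frontal cortex, 12 of the 29 nuclear-encoded subunits were called higher and 0 lower, among them Atp5o of ATP synthase (1.08 ± 0.08), Cox6c of cytochrome c oxidase (0.39 ± 0.06) and Ndufa1 of complex I (0.40 ± 0.06). For piriform against frontal cortex 0 were called higher and 13 lower, among them the complex III core protein Uqcrc2 (-0.32 ± 0.04) and Sdha of complex II (-0.19 ± 0.03). For piriform cortex against hippocampus 0 were called higher and 26 lower, Atp5o by -1.23 ± 0.10 among them. Of the 26 factors for mitochondrial DNA and RNA, 7, 4 and 4 were called higher and 4, 6 and 11 lower in the 3 contrasts in that order. The called parts of this list were near or below those of all genes. Top1mt, the mitochondrial topoisomerase, was higher in the hippocampus than in the frontal cortex (0.62 ± 0.05) and lower in the piriform cortex than in the hippocampus (-0.62 ± 0.06), and Tfam, which packages mitochondrial DNA and starts its transcription, gave 0.15 ± 0.03 and -0.27 ± 0.03 in the same contrasts. Of the 5 biogenesis regulators 0 were called higher and 4 lower for hippocampus against frontal cortex, 0 and 1 for piriform against frontal cortex and 3 and 0 for piriform cortex against hippocampus, led by Ppargc1b in the first (-0.80 ± 0.10). The nuclear-retained long noncoding RNAs moved with the piriform libraries: 7 of 8 were called higher there than in the frontal cortex, Miat by 1.32 ± 0.22 and Malat1 by 1.03 ± 0.18 among them, and 7 of 8 higher than in the hippocampus, Malat1 by 1.21 ± 0.18 among them. Their part in the mitochondrial difference was not tested.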

How the data were processed

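The authors deposited a single table of counts per gene, 55416 Ensembl identifiers by 71 libraries, as whole numbers that are not normalised. RNA was purified on RNeasy mini spin columns and read as single-end 100 bp runs, per the labels' protocols. The build GRCm38 and the tools DESeq2 1.24.0, STAR, fastp and FastQC 0.11.3 appear in the submitters' processing notes. Not given in the sources used here are the counting program, its strand setting and annotation release, and how multiply mapping reads were treated. Symbols and positions came from GENCODE M21, which matched 52135 identifiers. Rows that name no gene numbered 0.

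CPM are a gene's counts per 1000000 counts of a library's total. Each region was fitted in edgeR 4.0.16 under R 4.3.3 (TMM, filterByExpr on treatment, quasi-likelihood test) with treatment and, where there were 2 batches, batch. Regions were compared in 1 fit of all libraries. Benjamini-Hochberg adjusted p under 0.05 over all genes tested was the call. The fits were checked on simulated data: for burn against sham, of 50 genes changed per size, 44 of those changed 2-fold were recovered in the hippocampus (19405 genes), 38 in the frontal cortex (20833) and 32 in the piriform cortex (20628), of those changed 1.5-fold 29, 22 and 17, and of those changed 1.25-fold 19, 7 and 4. A first limit on the recovery of 4-fold changes (50, 49 and 42 of 50) was missed in the piriform cortex and was replaced, after that was seen, by limits on errors and false calls. Deviations from region and batch used log2(CPM + 0.1). Nuclear genes entered the base composition comparison from a mean count of 100. Nuclear copies were compared with blastn 2.17.0 (at least 90% identity over 80% of the shorter gene). Python 3.11.15, pandas 2.3.3, numpy 2.4.6, scipy 1.17.1 and matplotlib 3.10.9 were used.

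All 13 protein-coding and 2 rRNA genes are described in each contrast by value or range, and a tRNA gene where it passed the count filter. Called members, at most 10 by smallest p, or else the 2 members with the smallest p, were given with statistics, and at most 3 called genes of each of 5 nuclear lists. The members, lists and naming rule were chosen with earlier results of these data known. The alternatives were DESeq2 1.42.0's test and size factors, library sizes without the members, no count filter, no batch term, each batch alone, libraries with conflicting labels left out or grouped by title, the replicate number as a block, libraries under 10 M counts left out, each library left out, and sham libraries alone. Added after seeing the data were leaving out the libraries with low mt-Nd6 (under 1% of the members' counts), a base composition covariate, and copies taken out of the total. The numbers in the titles did not pair libraries.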

Additional observations from a re-analysis of the deposited data

Results flagged for a closer look

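In each treatment group of a region, the share of the 37 genes, the share of the rRNA genes and the CPM of 16 members were searched for a library far from all others of its group, which chance gives in about 1 in 20 groups; 31 of 162 were found, most of them members of the same few libraries. No explanation was tested.

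Hippocampus burn replicate 9 held the highest value of its group in 17 measures. Its share of counts in the 37 genes was 10.16%, with the next burn library at 5.901%, and its rRNA share was 1.04%, with the next at 0.5376%. Its CPM, each followed by that of the next burn library, were 4250 and 2336 for mt-Rnr1, 6147 and 3131 for mt-Rnr2, 7362 and 4176 for mt-Nd1, and 5045 and 2812 for mt-Nd2. They were 1651 and 875 for mt-Nd3, 745.8 and 464.8 for mt-Nd4l, 7900 and 4727 for mt-Nd4, 3696 and 2054 for mt-Nd5, and 1501 and 853.5 for mt-Nd6. For the remaining mRNAs they were 8152 and 4926 for mt-Cytb, 23780 and 14400 for mt-Co1, 9236 and 5928 for mt-Co2, 10640 and 6169 for mt-Co3, 915.9 and 472.8 for mt-Atp8, and 10600 and 6052 for mt-Atp6. mt-Tp, at 8.872 CPM in this library, did not stand out. Its summed neuronal markers, 5141 CPM, were the lowest of batch 2 of the hippocampus, and its astrocyte markers, 2423 CPM, the highest. Its neocortex markers summed to 332.6 CPM beside 191 to 341.6 CPM in that batch, and its blood markers to 450.5 CPM beside 159.7 to 454.8 CPM. Its hippocampal markers summed to 298.7 CPM beside 282.2 to 478.8 CPM, and its endothelial markers to 69.47 CPM beside 37.65 to 73.75 CPM. Its oligodendrocyte, microglia and choroid plexus sums lay inside the ranges of that batch.

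Piriform cortex burn replicate 2 was the highest of its group for the mitochondrial share, 8.954% with the next at 7.436%, and for the CPM of mt-Co2 (8047, next 6583), mt-Co3 (8867, next 6983), mt-Nd6 (1408, next 1032) and mt-Cytb (7597, next 6066). Piriform cortex excision replicate 4 was the highest of its group for the rRNA share, 0.763% with the next at 0.5826%, and for mt-Rnr1 (3229 CPM, next 2583) and mt-Rnr2 (4401 CPM, next 3268).

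The lowest values that stood apart came from libraries with low mt-Nd6, with 1 exception. Piriform cortex sham replicate 5 had 204 CPM of mt-Nd3 (next 983.4), 397.3 CPM of mt-Nd4l (next 694.6) and 2403 CPM of mt-Nd4 (next 6746). Frontal cortex burn replicate 7, 1 of the libraries with conflicting labels, had 22.9 CPM of mt-Atp8 (next 226.5) and 0.9655 CPM of mt-Tp (next 10.54). The exception was mt-Tp in hippocampus excision replicate 9, at 5.106 CPM with the next library at 11.18 CPM.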

How the results depend on the processing

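Under all alternatives, 93 fits of the treatment contrasts and 213 that left out 1 library, edgeR or DESeq2 called 0 members for burn, excision and sham. Of the values of the members given by name in each contrast under the naming rule, 6 changed sign under settings other than leaving out 1 library, none of them called. Members outside the rule were not counted there: for burn against sham in the frontal cortex 8 of 16 were above 0 with all libraries and 0 of 16 in batch 2 alone. For burn against sham, mt-Tp in batch 1 of the hippocampus alone was 0.21, and in the frontal cortex mt-Rnr2 was 0.12 and mt-Rnr1 0.12 with treatments taken from titles and 0.10 and 0.091 in batch 1 alone. For burn against excision in batch 2 of the hippocampus alone, mt-Co2 was 0.058. For excision against sham in the frontal cortex, mt-Nd5 ran from -0.28 to 0.072 when single libraries were left out, the highest without sham replicate 2.

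For batch 2 against batch 1 in the frontal cortex, members called were 0 with all libraries, 1 by DESeq2, 0 to 4 with single libraries left out, 7 without the libraries with low mt-Nd6 and 2 with the base composition covariate. For hippocampus against frontal cortex 6 became 2 in sham libraries alone and 13 without libraries with low mt-Nd6. Sham libraries alone gave 1 for piriform against frontal cortex and 10 for piriform cortex against hippocampus. Other counts of calls and mean shares stayed within 1.5 times or 1 SD.

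Counts over all genes moved more. Over the settings other than leaving out single libraries, burn against sham gave 31 to 1324 genes in the hippocampus (202 as reported) and 0 to 1328 in the frontal cortex (59), and burn against excision 0 to 308 (41) and 0 to 1318 (44). Batch 2 against batch 1 gave 2226 to 5233 (3210) and 1407 to 5045 (2108). The regions gave 8305 to 15270 (13501), 2605 to 8839 (8275) and 7367 to 16052 (13737).

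Title numbers shared across treatments gave correlations over 0.1 in 11 of 28 hippocampus, 8 of 24 frontal and 4 of 11 piriform pairs, so the numbers did not pair libraries; 5 of 29, 10 of 24 and 3 of 13 libraries correlated best with their own number. With the replicate block 0 members were called in all 9 contrasts, and over all genes 169 for burn against sham and 21 for burn against excision in the hippocampus, and 0 and 8 in the frontal cortex. The 4 shallow hippocampus libraries limit tRNA genes most.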

Other observations

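The 8 nuclear-retained long noncoding RNAs read beside the members (their list was chosen with earlier results known) gave these values under treatment in the hippocampus. All 8 were below 0 for burn against sham, with a median log2 fold change of -0.84 beside 0.01 for all genes. The edgeR quasi-likelihood test called 0 of them, 6 had an unadjusted p under 0.05 (3470 of all 19574 genes did), and DESeq2 called 1. For burn against excision all 8 were again below 0, with a median log2 fold change of -0.60. There edgeR called 0, 5 had an unadjusted p under 0.05 (2790 of all 19574 genes did), and DESeq2 called 0. These contrasts share the burn libraries. For excision against sham the median was -0.12, 1 of 8 was above 0, and 0 were called by edgeR, by DESeq2 or at an unadjusted p under 0.05. The burn effect of batch 2 minus that of batch 1 was above 0 for all 8, with a median of 1.75 on the log2 scale. For it 0 were called by edgeR and 7 had an unadjusted p under 0.05 (3180 of all 19574 genes did). The 17 mitochondrial genes tested had median log2 fold changes of 0.09 for burn against sham and -0.02 for burn against excision.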
